A study of Mus musculus with 4 samples.

Results

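The COUP-TF nuclear receptors Nr2f1 and Nr2f2, the nuclear factor I genes Nfia, Nfib and Nfix, and Reln, the gene of reelin, were followed in ribosome-bound RNA from the mediobasal hypothalamus of mice. They were picked by gene symbol in the platform annotation, which gave the 6 genes out of 16593 with a symbol, and 9 of the 25697 probes in the table. The genes had been chosen because several of them were higher in one group of the same 4 arrays, so the differences between groups given for them are a description with no test. Of the 9 probes, 5 were detected on at least 2 of the 4 arrays and passed the filter on dim probes. They represent 4 genes, Nr2f1, Nr2f2, Nfix and Reln, while Nfia and Nfib had no probe past the filter.

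The study used RiboTag, in which Cre recombinase turns on an RPL22 ribosomal protein with a hemagglutinin tag, so that messenger RNA on tagged ribosomes can be pulled down with an antibody. In the AAV group (n = 2 arrays), mice carrying Pomc-Cre were injected with the Cre-dependent viral vector AAV-DIO-RiboTag, and the labels call the tagged cells adult POMC neurons. The lineage group (n = 2 arrays) came from a cross of Pomc-Cre with RiboTag mice, and the labels call the tagged cells the Pomc-derived lineage, which includes cells that expressed Cre only earlier in life. All 4 samples therefore carry Pomc-Cre and differ in when and how the tag was delivered. Strain, age and sex are not given in the sources used here, and nothing says whether an array stands for 1 animal or a pool, so the spread between arrays of a group may be technical.

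Pomc, the marker of the labelled cells, was detected on all 4 arrays and was 1.57-fold higher in the lineage group (AAV minus lineage -0.65 on the log2 scale, limma adjusted p = 0.369). Rpl22, the gene of the tagged protein, was at 0.95 (limma adjusted p = 0.426) and Npy, the neuropeptide of the neighbouring arcuate cell type, at -2.60 (0.134). Between 10982 and 12306 probes were detected per array, each probe read from a median of 38 or 39 beads. The AAV arrays lay at positions B and D of 1 beadchip and the lineage arrays at F and H, so position and group cannot be told apart. With 2 arrays a group, an exact permutation test cannot give a two-sided p below 0.333.

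COUP-TFI and COUP-TFII, the products of Nr2f1 and Nr2f2, are orphan nuclear receptors that bind repeats of a hormone response half-site. In the forebrain they mark caudal and ventral territories and the interneurons born there. NFI proteins bind DNA as dimers and are known for switching neural progenitors toward glial production and for the maturation of neurons. Reelin is a large secreted glycoprotein that guides migrating neurons through the receptors VLDLR and LRP8 (ApoER2) and the adaptor DAB1, and that is made by Cajal-Retzius cells and by some GABAergic interneurons in the cortex.

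Promoter windows of 250 bases before the annotated start were taken from RefSeq (GRCm38.p6) for 5 of the 6 genes, 9 windows in all. Of these, 3 are shown, 1 each for Nr2f2, Nfix and Reln, picked after the search as examples with a match. The other windows of Nr2f1 and Nfix held a GC box (1 Nr2f1 window), an NFI half-site (1 Nfix window) or a COUP-TF half-site with 2 GC boxes (1 Nfix window), and 3 windows, of Nr2f1, Nfix and Nfia, held no match. Capitals mark matches, searched on both strands, to the NFI half-site TTGGC, the COUP-TF half-site AGGTCA and the GC box GGGCGG. The Nr2f2 window lies at chr7:70366747-70366996, minus strand, the Nfix window, that of the third of 4 starts in coordinate order, at chr8:84775829-84776078, minus strand, and the Reln window at chr5:22344706-22344955, minus strand.
Nr2f2: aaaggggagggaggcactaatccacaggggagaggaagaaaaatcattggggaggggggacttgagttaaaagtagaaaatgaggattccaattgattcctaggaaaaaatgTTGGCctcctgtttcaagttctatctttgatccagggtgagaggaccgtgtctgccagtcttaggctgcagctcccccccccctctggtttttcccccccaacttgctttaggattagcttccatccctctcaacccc
Nfix: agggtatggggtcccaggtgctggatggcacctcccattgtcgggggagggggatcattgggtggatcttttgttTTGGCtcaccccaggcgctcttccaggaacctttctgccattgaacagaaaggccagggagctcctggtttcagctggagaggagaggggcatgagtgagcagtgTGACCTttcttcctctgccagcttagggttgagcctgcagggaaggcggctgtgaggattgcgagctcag
Reln: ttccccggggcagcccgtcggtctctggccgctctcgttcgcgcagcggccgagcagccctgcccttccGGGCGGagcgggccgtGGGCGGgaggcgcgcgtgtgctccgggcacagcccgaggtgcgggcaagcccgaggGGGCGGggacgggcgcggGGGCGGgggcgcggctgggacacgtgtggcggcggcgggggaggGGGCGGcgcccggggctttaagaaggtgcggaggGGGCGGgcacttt

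The Nr2f2 window held 1 NFI half-site and no COUP-TF half-site. The Nfix window held 1 of each, the COUP-TF half-site on the opposite strand as TGACCT. The Reln window held 6 GC boxes, neither of the other half-sites, and 80% G and C. These letters are common: among 32851 RefSeq promoter windows of the same length, 41.5% held the NFI half-site, 14% the COUP-TF half-site and 32.7% the GC box. The full NFI palindrome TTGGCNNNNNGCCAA, which contains the NFI half-site on both strands, occurred in 12 of all windows. The direct repeat AGGTCANAGGTCA, which contains the COUP-TF half-site, occurred in 11, and neither full motif was in a window of these genes. A match describes the letters only, and no binding was measured.

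All 5 probes past the filter were higher on both AAV arrays than on both lineage arrays. Over all 12266 tested probes, 21.4% showed this order. All 5 were also higher in the AAV group by at least 1 on the log2 scale, against 1.17% of tested probes. Both counts restate the choice of the genes, and nothing is read from them. The median difference over the 4 genes, each by its brightest passing probe, was 1.76. Over all 8360 tested genes, taken the same way, the median was 0.0064, with an interquartile range of -0.18 to 0.20. Levels of different probes are not compared, because probes differ in how brightly they read the same amount of RNA, and in pulled-down RNA a change in the share of tagged cells and a change in RNA per cell cannot be told apart.

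**Figure D1:**
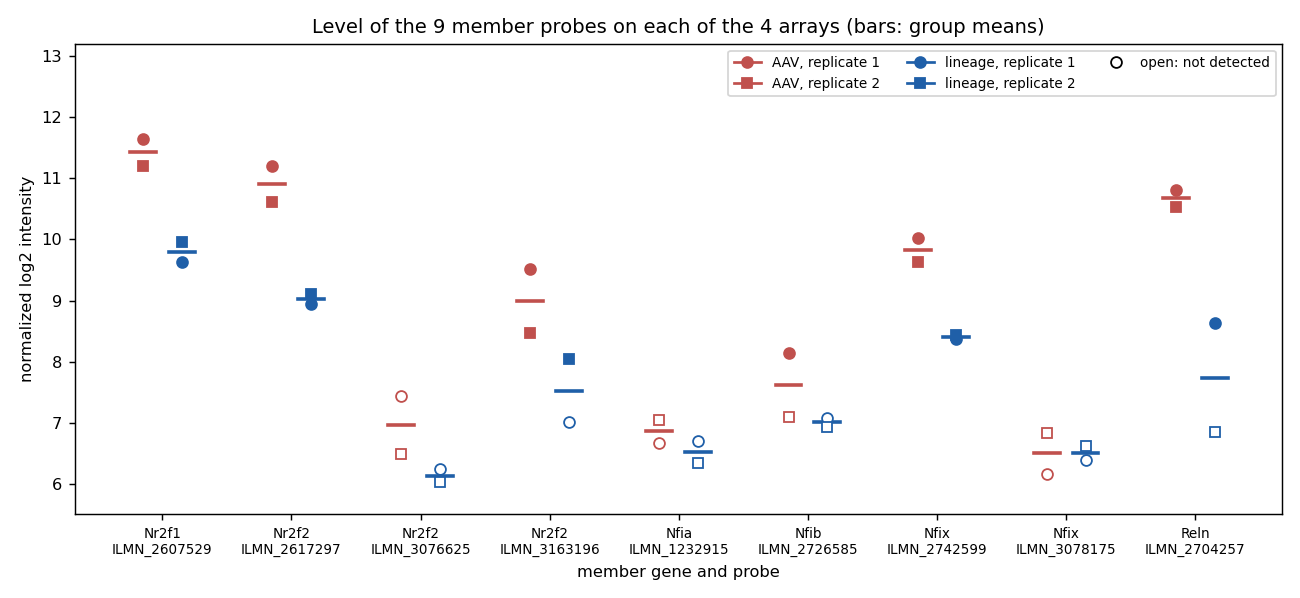
Normalized log2 intensity of each member probe on each array, AAV in red and lineage in blue, circles for replicate 1 and squares for replicate 2, with bars at the group means; open symbols were not detected (detection p of 0.05 or more). Both AAV arrays lie above both lineage arrays for the 5 probes past the filter, while the dim probes of Nfia, Nfib, Nr2f2 and Nfix lie mostly among undetected values.

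Nr2f1 (chr13:78188971-78198873, GRCm38) had normalized log2 intensities of 11.65 and 11.21 on the AAV arrays and of 9.63 and 9.96 on the lineage arrays. The lowest AAV array was 1.25 above the highest lineage array, so the groups did not overlap. The group means were 11.43 ± 0.31 (SD, n = 2) and 9.79 ± 0.24, a 3.10-fold difference (log2 1.63, SE 0.23). On the scale as deposited, the intensities were 3852 and 2723 in the AAV group and 1171 and 1435 in the lineage group, with bead standard errors of 111, 94.5, 31.1 and 43.1. The 2 AAV arrays differed by 7.73 bead standard errors, so the arrays of a group varied by more than the reading error of the beads.

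Nr2f2 (chr7:70351946-70366746) encodes COUP-TFII, which also marks venous endothelium and parts of the ventromedial hypothalamus. It had 3 probes, designed against 2 of its RefSeq transcripts. The probe for transcript NM_009697 read 11.20 and 10.62 on the AAV arrays and 8.95 and 9.11 on the lineage arrays, with detection on all 4. Each AAV value was above each lineage value by 1.51 to 2.25. The fold was 3.69 (log2 1.88, SE 0.24). Deposited intensities were 2943 and 1942 against 882 and 991.

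The brighter of both Nr2f2 probes for transcript NM_183261 read 9.51 and 8.46 on the AAV arrays and 7.0 and 8.04 on the lineage arrays. It was detected on both AAV arrays and on 1 of 2 lineage arrays, and the second AAV array lay only 0.43 above the second lineage array. Its difference was 1.47 (SE 0.50). Without AAV replicate 1 it was 0.95, without lineage replicate 1 0.94, and without background correction 0.65. The dimmer probe for that transcript was undetected on all 4 arrays, so that it carries no fold.

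**Figure D2:**
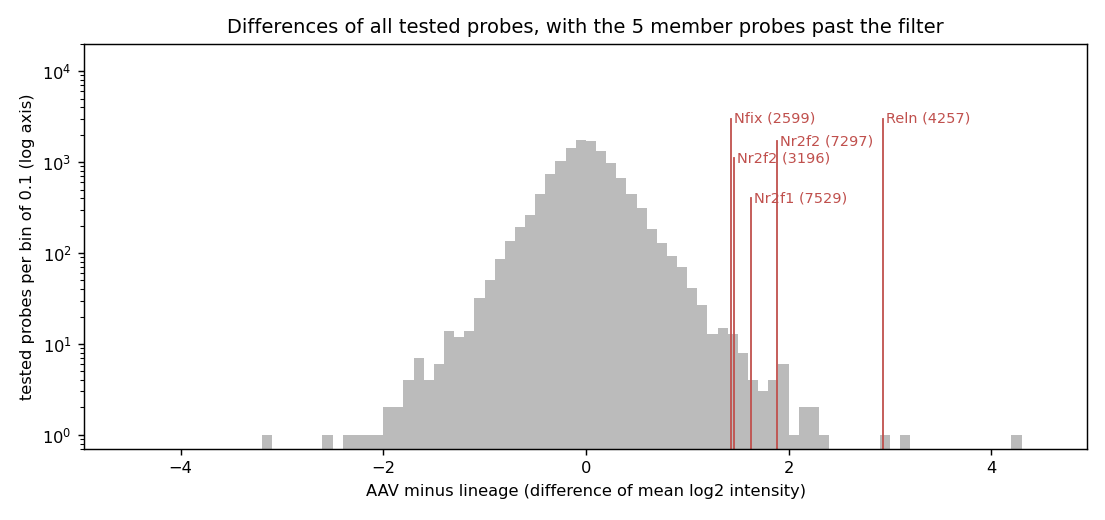
Number of tested probes (log axis) in bins of 0.1 of the difference in mean log2 intensity, AAV minus lineage; red lines mark the 5 member probes past the filter, named with the last digits of their identifiers. The lines stand at 1.43 to 2.93 in the right tail of the 12266 tested probes, from which these genes had been chosen.

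Among the NFI genes of the member set, only Nfix (chr8:84704712-84801238) had a probe past the filter. Its probe for transcript NM_010906 read 10.03 and 9.63 on the AAV arrays and 8.37 and 8.43 on the lineage arrays. The lineage arrays differed by only 0.06, and the groups were at least 1.20 apart. The fold was 2.69 (log2 1.43, SE 0.19), from deposited intensities of 1534 and 1186 against 722 and 786, and the log2 difference was 0.81 without background correction. The other Nfix probe, for transcript NM_001081981, was undetected on all 4 arrays.

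Nfib (chr4:82290173-82506751) was detected only on AAV replicate 1, where it read 8.15. The other AAV array at 7.09 and the lineage arrays at 7.09 and 6.93 were undetected. With detection on 1 of 4 arrays, Nfib carries no fold. Nfia (chr4:97578066-98118876), the NFI gene best known for starting gliogenesis in the mouse, was undetected on all 4 arrays, with deposited intensities of 481 and 542 in the AAV group and 476 and 440 in the lineage group, so no fold is given.

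Reln (chr5:21884454-22344705) showed the largest difference of the 5 probes. It read 10.81 and 10.53 on the AAV arrays and 8.64 and 6.84 on the lineage arrays. Both AAV arrays were high and close together, whereas the lineage arrays lay farther apart than the arrays of either group on any other member probe, and the second lineage array was not detected. The group means were 10.67 ± 0.20 (SD, n = 2) and 7.74 ± 1.27, a 7.62-fold difference (log2 2.93, SE 0.61). Deposited intensities were 2331 and 1854 against 789 and 517. Without lineage replicate 2 the Reln difference was 2.04, beside 1.96 and 2.00 for the Nr2f2 probes past the filter. The Reln difference was 3.80 without lineage replicate 1 and 1.67 without background correction. Its smallest value between any AAV array and any lineage array was 1.89.

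**Figure D3:**
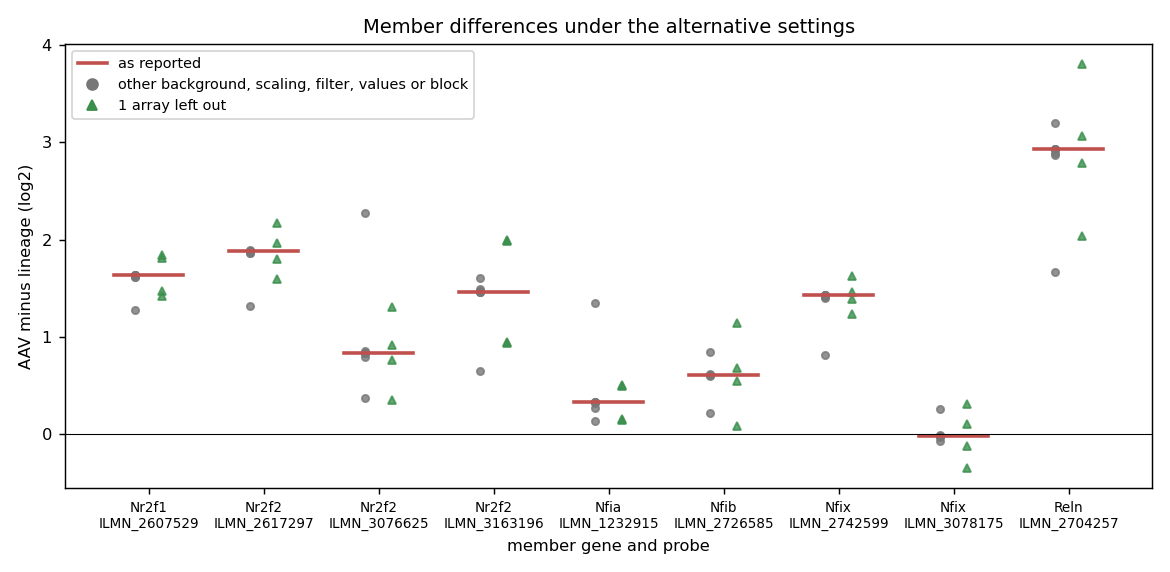
Difference of each member probe (AAV minus lineage, log2) as reported (red bar), under other background correction, scaling, filter, values or block (grey circles) and with 1 array left out (green triangles). Reln spans 1.67 to 3.80 and the Nr2f1 probe 1.28 to 1.84, and the dim Nfix probe lies on both sides of 0.

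Other genes of these pathways came from 4 lists that leave out the 6 members. Of the 12266 tested probes, limma with Benjamini-Hochberg adjustment called 0 (0%) at a threshold of 0.05, and 1275 had an unadjusted p under 0.05 (10.4%). Letting the prior spread vary with intensity (a trend in eBayes) called 132 higher (1.08%) and 100 lower (0.815%) in the AAV group. No list gene passed the limma fit in either direction.

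The reelin pathway list, with 31 of 36 genes measured, had a median difference of -0.0089 and a range of -0.72 to 0.53. The median over all 8360 tested genes, each by its brightest probe, was 0.0064. In the list, the groups did not overlap for 7 genes higher (22.6%) and 9 lower (29.0%) in the AAV group. Among tested probes these shares were 21.4% and 21.9%. Of the reelin receptor genes, Lrp8 was not measured. Vldlr read 11.23 and 11.07 on the AAV arrays and 11.00 and 11.10 on the lineage arrays. Its difference was 0.10 (SE 0.16), with -0.30 to -0.08 on its 4 other probes. Dab1, the adaptor that reelin signalling phosphorylates, was at 0.19 (SE 0.40), with -0.26 on another probe, and its groups overlapped.

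The 5 reelin pathway genes of smallest p did not pass (limma adjusted p 0.446 to 0.592). Cul5, the cullin of the ligase that degrades activated DAB1, was at -0.71 (SE 0.24, and -0.42 without AAV replicate 2). The integrin subunit Itgb1 was at -0.43 (SE 0.15), with -0.69 on another probe, whose groups overlapped. Fyn, the gene of a kinase that phosphorylates DAB1, was undetected on both AAV arrays and at least 1.17-fold higher on the lineage arrays. Dab2ip was at 0.36 and the integrin subunit Itga3 at 0.35, or 0.15 without lineage replicate 2.

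Among the relatives and partners of the COUP-TF receptors, the 2 BCL11 genes, whose products bind COUP-TF proteins, lay on opposite sides. Bcl11a (CTIP1) read 8.87 and 8.78 on the AAV arrays and 8.21 and 7.82 on the lineage arrays, a difference of 0.81 (SE 0.20, limma adjusted p = 0.366). Bcl11b (CTIP2) read 8.16 and 8.14 against 9.32 and 9.58, a difference of -1.30 (SE 0.17, limma adjusted p = 0.295; 0.0223 with a trend, 0.0223 to 0.789 over its alternatives). In both genes the groups did not overlap, in opposite directions.

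Of the other COUP-TF relatives, Nr2e1 (Tlx), a nuclear receptor of neural stem cells, was undetected in the AAV group, and the lineage arrays were at least 1.49-fold higher (limma adjusted p = 0.361). The glucocorticoid receptor gene Nr3c1 was at -0.65 (SE 0.29, limma adjusted p = 0.523), and at -1.02 and -0.29 without AAV replicate 1 or 2. The histone deacetylase gene Hdac1 was at 0.63 (SE 0.23, limma adjusted p = 0.464), and at 0.40 without AAV replicate 2. The remaining COUP-TF family member Nr2f6 was not detected on any array. In all, 11 of 17 listed genes were measured, with a median of -0.14, and the groups did not overlap for 2 higher (18.2%, against 21.4% of tested probes) and 4 lower (36.4%, against 21.9%).

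Nfic, the NFI gene outside the member set, had 3 probes past the filter. Its brightest probe read 8.45 and 8.57 on the AAV arrays and 9.0 and 8.65 on the lineage arrays, a difference of -0.32 (SE 0.19, limma adjusted p = 0.612; -0.14 without lineage replicate 1). Its other probes were at 0.46 and -0.02. Each was detected on only 1 of 2 lineage arrays, and the probe at -0.02 also on only 1 of 2 AAV arrays. Of the 21 genes in the list of NFI-linked glial and progenitor genes, 11 were measured, with a median of 0.17 (0.03 without AAV replicate 1 and 0.08 without lineage replicate 1) and with 4 higher (36.4%, against 21.4% of tested probes) and 2 lower (18.2%, against 21.9%) without overlap. Notch1, the receptor of a pathway that induces NFIA in mouse neural progenitors, was undetected in the lineage group and read 7.48 and 7.56 on the AAV arrays against 6.69 and 6.48 (limma adjusted p = 0.303), and its AAV signal was too low for a fold bound above 1. The cell cycle inhibitor gene Cdkn1a was at 0.73 (SE 0.23, limma adjusted p = 0.426; 0.46 without lineage replicate 2), with 1.19 on another probe, and was detected on 1 of 2 lineage arrays by both. Slc1a3, a glutamate transporter of astrocytes, was at 0.32, or 0.18 without AAV replicate 1. Of the 4 list genes higher without overlap, only Slc1a3 was detected on all 4 arrays. Fabp7, the brain lipid-binding protein of radial glia and a known NFI target, was detected on 1 of 2 lineage arrays and was at 0.49, with 0.82 and 0.15 without lineage replicate 1 or 2.

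Of 23 genes of Cajal-Retzius cells and reelin-positive interneurons 10 were measured, with a median of -0.15, and 3 were higher (30%, against 21.4% of tested probes) and 5 lower (50%, against 21.9%) without overlap. Of the genes of Cajal-Retzius cells, Calb2 (calretinin), Lhx5, Ebf1 and Nhlh2 were detected on all 4 arrays. Calb2 was at -0.15 and Lhx5 at -0.24. Trp73, Lhx1, Tbr1, Ebf2 and Ebf3 were not detected on any array. Of the other listed genes, Htr3a, Sp8, Vip, Cck, Npas1 and Npas3 were also undetected on all 4, and Ndnf was detected only on 1 lineage array. Id2, an inhibitor of basic helix-loop-helix factors, read 10.05 and 10.20 on the AAV arrays and 8.96 and 9.11 on the lineage arrays, a difference of 1.09 (SE 0.16, limma adjusted p = 0.295; 0.0146 with a trend, 0.0146 to 0.789 over its alternatives). Its other probe was undetected in the lineage group, and the AAV arrays were at least 1.38-fold higher.

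Cxcl12, the chemokine that holds Cajal-Retzius cells at the cortical surface, was at 1.27 (SE 0.15, limma adjusted p = 0.295) on its brightest probe, for transcript NM_013655, with only 1 of 2 lineage arrays detected. A probe for transcript NM_021704 was undetected on both AAV arrays and at least 1.45-fold higher on the lineage arrays. Somatostatin (Sst) was at -0.48 (SE 0.19, -0.30 without AAV replicate 2, limma adjusted p = 0.483; 0.0399 with a trend, 0.0399 to 0.829 over its alternatives). Nhlh2 was at 0.48 and Ebf1 at -0.38.

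**Figure D4:**
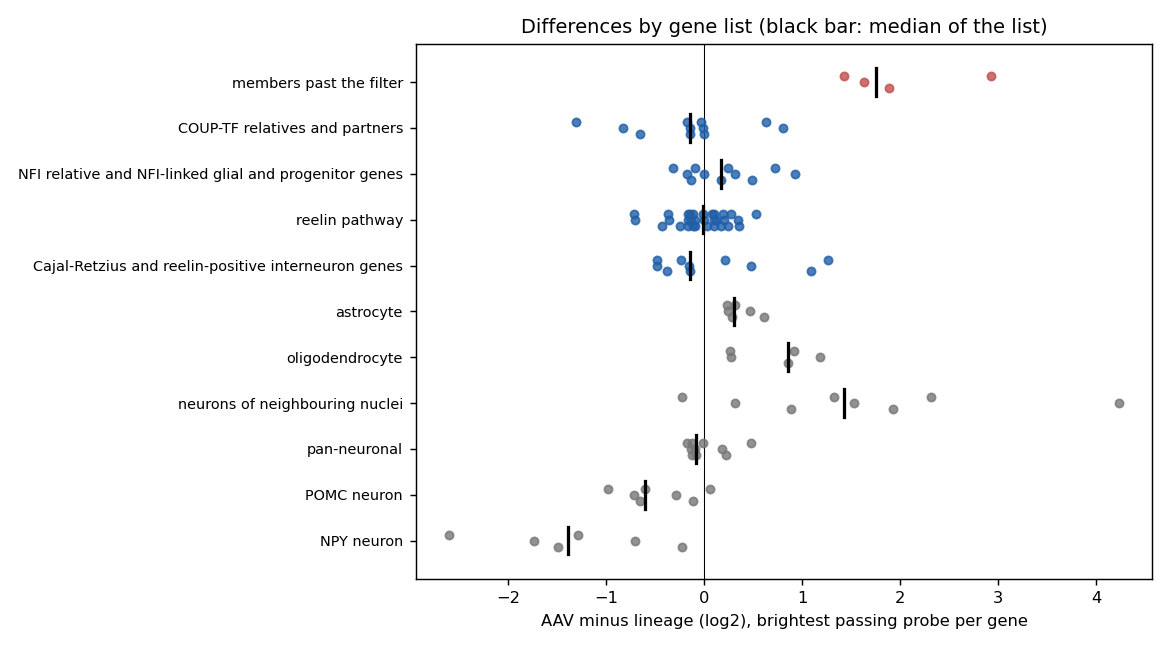
Difference of each measured gene (AAV minus lineage, log2, brightest passing probe) in the member set, the 4 pathway lists and 6 lists of cell type markers, with the median of each list as a black bar. The 4 member genes lie at 1.43 to 2.93, the reelin pathway list centres on -0.0089, and the markers of neighbouring nuclei centre on 1.43.

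Markers of other cells also differed between the groups by their means, though no marker passed the limma fit (lowest adjusted p 0.134). Of 8 measured markers of neurons in neighbouring nuclei, 6 were higher without overlap in the AAV group and 1 lower, with a median of 1.43 (without overlap, 21.4% of tested probes were higher and 21.9% lower, which holds beside the counts of the other marker lists too). Of the 8, Pmch was undetected on both lineage arrays, and Trh and Ppp1r17 were detected on 1 of 2 lineage arrays. Crh and Sim1 were not detected on any array, and Hcrt only on 1 AAV array. The summed intensity of the 8 measured markers was 12401 and 15099 on the AAV arrays against 2803 and 3033 on the lineage arrays. Without the Avp and Hdc probes, the other 6 summed to 2932 and 2591 against 1356 and 1208. Such sums, here and in the other marker lists, weight bright probes more and do not measure amounts of RNA. All 6 measured astrocyte markers had a higher mean in the AAV group, 5 without overlap, with sums of 11278 and 10028 against 8114 and 8227. The astrocyte markers Gfap, S100b, Sox9 and Agt were not detected on any array, and Aqp4 only on 1 AAV array.

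All 5 measured oligodendrocyte markers had a higher mean in the AAV group, 4 without overlap, with sums of 4195 and 4573 against 3026 and 2358. The largest, Mbp, was at 1.18, with 0.10 and 0.49 on its other probes. Mog and Ermn were not detected on any array, and no Mobp probe was detected on more than 1 AAV array or on a lineage array. Of 12 endothelial and mural markers 3 were measured, at -0.36 to 1.47, with sums of 3380 and 2680 against 2846 and 3135. Among them the mural gene Rgs5 was at 1.47 (limma adjusted p = 0.303), the mural gene Acta2 at -0.36, with -0.23 on another probe, and the endothelial gene Ly6c1, detected on all 4 arrays, at 0.17. The endothelial markers Flt1 and Pecam1 were each detected on 1 AAV array, and Cdh5, Kdr, Tek and Slco1a4 on none. Of 9 microglial markers only Aif1 was measured, at 0.56, with 0.16 on another probe. Of 9 tanycyte and ependymal markers Vim and Scn7a were measured, at -0.70 and -0.34. Oligodendrocyte precursor markers (3 measured) had a median of 0.15.

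The 7 measured POMC neuron markers had a median of -0.60 and the 6 NPY neuron markers of -1.39, while 10 pan-neuronal genes had a median of -0.09. Without overlap, 4 POMC and 6 NPY neuron markers were lower in the AAV group, against 21.9% of tested probes, and 0 were higher. Of the pan-neuronal genes, 2 were higher and 3 lower without overlap. The part of any of these cells in the differences of Nr2f1, Nr2f2, Nfix and Reln was not tested.

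The genes with patterns most like the members were found by the distance of log2 values centred on each probe's mean, over the 4 arrays and 11321 probes past the filter with a settled symbol. With 4 arrays in 2 groups this likeness mostly restates the difference between the groups and is a description only. Nfix was nearest to Srebf1 (distance 0.043), a regulator of lipid synthesis, then to Unc13c (0.067), a synaptic vesicle priming gene, and Rgs5 (0.21). Nr2f1 was nearest to Unc13c (0.26), the zinc finger gene St18 (0.26) and Srebf1 (0.28). Neither Srebf1 nor Unc13c was detected in the lineage group, and the AAV signals were at least 1.87-fold and 2.35-fold higher (limma adjusted p = 0.295 for both). St18 was detected on only 1 of 2 lineage arrays.

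Nr2f2 was nearest to both probes of Sema3f (0.17 and 0.20), a secreted semaphorin of axon guidance, and to Nts, the neurotensin gene (0.20). Sema3f was undetected in the lineage group, and its 2 probes were at least 2.38-fold and 3.38-fold higher in the AAV group (limma adjusted p = 0.295 for both). For Reln, whose second lineage value was itself not above background, the nearest were Ghrh at a distance of 1.26, Dlx2 at 1.35 and the calcium pump gene Atp2a3 at 1.39. Ghrh and Dlx2 were undetected on both lineage arrays and Atp2a3 on 1 of them, so these distances rest partly on values at background.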

How the data were processed

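Ribosome-bound RNA from 4 samples in 2 groups of 2 was read on Illumina MouseRef-8 v2 beadchips with a biotin label. Per the file headers, the deposited table lists for every probe its mean intensity, the count of beads behind it, the bead standard error and the detection p-value. Per the submitters' processing notes, the tool behind the intensities was GenomeStudio, whose version is not given in the sources used here. The authors' processed intensities served as an alternative.

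Intensities were corrected from the detection p-values and quantile normalized with neqc (offset 16) of limma 3.58.1 in R 4.3.3, on the log2 scale. Probes with a detection p under 0.05 on at least 2 arrays (12266 of 25697) entered 1 fit with lmFit and eBayes, AAV against lineage, without covariates and with 2 residual degrees of freedom. Two-sided p-values were adjusted over all tested probes (Benjamini-Hochberg). Standard errors come from this fit. The brightest passing probe stood for a gene. The platform annotation named 23978 probes and left 1719 unnamed. A fold bound sets the bright group against the lowest detected signal of each dim array, or the probe's own where that is higher. The fit was tested on simulated data.

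The members and lists were chosen with earlier results of these data known. Named were all member probes, the 5 genes of smallest p in each list, the 3 probes nearest to each member, marker genes, Pomc, Npy and Rpl22. Vldlr, Dab1, Nr2f6, Trp73, Lhx1, Lhx5, Calb2 and the other unmeasured genes of the Cajal-Retzius and interneuron list were named after their values were seen. Replicate numbers are shared by both groups, but nothing says that they pair samples. Alternatives covered background correction, scaling, filter, model of the spread, probe choice, a replicate block, the authors' values and leaving out each array.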

Additional observations from a re-analysis of the deposited data

How the results depend on the processing

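The limma fit called 0 probes, and so did cyclic loess, no filter, the stricter filter, an unmoderated linear model, the replicate block and leaving out each array (0 to 0). No background correction called 45 probes, median scaling 5, the authors' processed values 1 and a trend 232. With a trend, 2 genes of the Cajal-Retzius and interneuron list (Id2 and Sst) and 1 COUP-TF partner (Bcl11b) passed; the other settings called 0 list genes. The deviations of same-numbered arrays correlated at -0.02 over probes, and the numbers were not taken to pair the samples; the replicate block changed no call and left the median of the 4 member genes at 1.76. That median was 1.30 without background correction, 1.51 to 2.00 with 1 array left out, and within 1.65 to 1.77 in the other settings that kept these genes. Without a filter the median was 1.53, but over all 6 genes, Nfia and Nfib included. The order of the groups in the member probes was fixed by how the genes were chosen and is no sign of stability. List medians crossed 0 in 3 lists, for the reelin pathway at 0.06 with the authors' values and 0.05 without lineage replicate 1, and without a filter for the NFI list at -0.0017 (0.03 to 0.15 with 1 array left out, 0.09 with the stricter filter) and the Cajal-Retzius list at 0.02. Signals near background limit Nfia, Nfib and the dim probes of Nr2f2 and Nfix, for which the number of arrays also limits precision. The causes were not tested.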
